A study of Mus musculus with 22 samples.

Results

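The 5 genes of the adult mouse choroid plexus (ChP) described here are *Tmprss11a*, *1500009C09Rik*, *Sptlc3*, *Cadm1* and *Tll1*. They were selected on their fold changes, out of 33958 genes, for a response in 4V ChP that was larger in *Otx2*(+/-) mice than after Cre-Tat. The fold changes of those 2 contrasts, and the difference between them, are therefore given as a description, without a test. Of all genes tested, 3.53% passed an adjusted p under 0.05 in *Otx2*(+/-), 10.7% after Cre-Tat in 4V and 1.65% in the difference, and nothing is read from these shares for the 5 genes. The description of these genes as altered mainly in constitutive heterozygotes holds unevenly. *Sptlc3* in 4V lay at its vehicle level after Cre-Tat, and *Tmprss11a* and *1500009C09Rik* were lower after Cre-Tat by much less than in *Otx2*(+/-). In LV ChP after Cre-Tat *Tmprss11a* fell and *Cadm1* rose, and *Tll1* lay above its controls in *Otx2*(+/-) and below them after Cre-Tat.

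RNA was sequenced from 14 pools of mice, 2 pools (A and B, biological replicates by the labels) for each of 7 groups. In the constitutive model, 4V ChP (the choroid plexus of the fourth ventricle) came from WT, *Otx2*(+/-) and *Otx2*(+/AA) mice of the B6D2 background. *Otx2*(+/-) mice carry 1 allele of *Otx2* replaced by GFP in all cells and throughout life, and were 3 months old, like the WT mice. *Otx2*(+/AA) mice are heterozygous for an allele that the labels write AA and do not describe, and their age is not given. In the conditional model, 3-month-old *Otx2* lox/lox mice of the S129 background received Cre-Tat, a cell-permeable recombinase, or vehicle in the lateral ventricles, and ChP of the lateral ventricles (LV) and of 4V was taken 15 days later from pools of 5 Cre-Tat or 4 vehicle mice. The vehicle controls carry the lox/lox alleles too. As the study's methods read, LV and 4V were dissected from the same mice, so the 14 pools need not be 14 separate sets of mice. Strain, ventricular injection, library number series and kind of deletion cannot be told apart between the models. Each group was therefore compared with its own controls.

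OTX2 is a homeodomain transcription factor that the ChP epithelium makes throughout life. This epithelium secretes cerebrospinal fluid and forms the barrier between blood and fluid. *Tmprss11a* encodes a serine protease anchored in the cell membrane. *Sptlc3* encodes an alternative subunit of serine palmitoyltransferase, the enzyme that starts sphingolipid synthesis, and gives it a preference for shorter acyl chains. *Cadm1* encodes an immunoglobulin-type adhesion molecule that joins neighbouring cells. *Tll1* encodes a secreted metalloprotease of the tolloid family, which trims procollagens and frees bone morphogenetic proteins from their antagonist. The function of *1500009C09Rik* is not established, and GENCODE lists it as protein-coding whereas RefSeq lists it as a long noncoding RNA.

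On GRCm38, *Tmprss11a* (ENSMUSG00000072845) lies at chr5:86410410-86468990 on the minus strand, *1500009C09Rik* (ENSMUSG00000068099) at chr15:82252397-82260753 on the plus strand, *Sptlc3* (ENSMUSG00000039092) at chr2:139493913-139637674 on the plus strand, *Cadm1* (ENSMUSG00000032076) at chr9:47530173-47857637 on the plus strand and *Tll1* (ENSMUSG00000053626) at chr8:64014931-64206271 on the minus strand. The exons of the transcript used for each share no base with exons of counted transcripts of another gene on either strand. Transcripts without counts here were not checked. Of the 50-base words of their transcripts, none of 4 genes occurs in another gene, and 6 of 4718 words (0.127%) of *Tll1* do. Each gene stands on 1 transcript, of 2657 bases and 9 exons for *Tmprss11a*, 1552 bases and 2 exons for *1500009C09Rik*, 2759 bases and 13 exons for *Sptlc3*, 4444 bases and 10 exons for *Cadm1* and 4767 bases and 21 exons for *Tll1*.

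The 250 bases before the start of *Sptlc3* and of *Tmprss11a* are shown because both genes lost most of their RNA in the pools labelled *Otx2*(+/-). In 4V after Cre-Tat, of these 2 genes only *Tmprss11a* was also low. The sequences are those of RefSeq for GRCm38.p6, at chr2:139493663-139493912 on the plus strand and chr5:86468991-86469240 on the minus strand. Capitals mark GGATT, or AATCC on the other strand, part of TAATCC, the core motif of OTX2, whose reverse complement is GGATTA.
Sptlc3: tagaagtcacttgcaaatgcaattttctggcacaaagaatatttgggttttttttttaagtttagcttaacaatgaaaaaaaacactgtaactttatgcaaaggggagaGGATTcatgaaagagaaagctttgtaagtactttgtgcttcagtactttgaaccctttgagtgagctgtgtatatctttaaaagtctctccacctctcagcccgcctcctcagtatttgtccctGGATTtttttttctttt
Tmprss11a: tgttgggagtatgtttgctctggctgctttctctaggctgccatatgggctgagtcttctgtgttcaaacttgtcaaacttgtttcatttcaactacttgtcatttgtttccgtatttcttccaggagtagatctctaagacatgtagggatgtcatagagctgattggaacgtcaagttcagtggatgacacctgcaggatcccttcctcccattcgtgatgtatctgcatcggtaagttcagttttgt
The window of *Sptlc3* holds the shorter motif at 2 places and that of *Tmprss11a* at none. RefSeq windows of 300 bases (250 before and 50 after a start) were found for 4 of the 5 genes, 5 windows in all. The full core TAATCC or GGATTA occurred in 0 of these 5 windows and in 7.06% of all 32851 windows. AATCC or GGATT, which is contained in the full core, occurred in 2 of the 5 and in 35.5% of all windows. A match describes the letters only.

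Total counts were 22750019 to 50088408 per pool, and both runs of a conditional pool were summed. All 10 epithelial markers were detected in every group. Levels are given as CPM, the counts-per-million of a pool after scaling with TMM factors over the 14 pools. *Otx2* itself, counted over its whole transcript, was 361 and 303 CPM in the WT pools and 1027 and 886 CPM in the pools labelled *Otx2*(+/-). It was 386 and 393 CPM in the 4V vehicle pools and 1203 and 1223 CPM in the 4V pools labelled Cre-Tat. In LV the values were 386 and 470 CPM against 1236 and 1025 CPM. Counts per transcript do not separate exons, so the deleted part of *Otx2* was not counted apart and the higher totals do not test the knockdown that these labels state. The groups are called by their labels, on which every direction rests. In *Otx2*(+/AA) pools *Otx2* was 339 and 357 CPM, or 0.06 on the log2 scale against WT (standard error 0.13, adjusted p = 0.96, edgeR).

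*Tmprss11a* and *1500009C09Rik* showed the lowest levels of all groups in the pools labelled *Otx2*(+/-), and intermediate ones in *Otx2*(+/AA). *Tmprss11a* was 47.9 and 52.4 CPM in WT, 3.13 and 3.29 CPM in *Otx2*(+/-), and 24.8 and 20.9 CPM in *Otx2*(+/AA). These groups do not overlap. The counts behind the *Otx2*(+/-) values were 62 and 64, against 918 and 931 in WT. The log2 fold change in *Otx2*(+/-) was -3.96 (standard error 0.15), which leaves 6.42% of the WT level. After Cre-Tat in 4V, *Tmprss11a* was 67.3 and 67.5 CPM against 183 and 145 CPM with vehicle, a log2 fold change of -1.28 (standard error 0.14), or 41.2% of the vehicle level. The pools labelled Cre-Tat stayed above the WT pools of the other model, which differs in strain, injection and library number series. Its levels ran from LV vehicle through 4V vehicle, LV Cre-Tat, 4V Cre-Tat, WT and *Otx2*(+/AA) down to *Otx2*(+/-), and only LV and 4V vehicle overlapped among neighbours in that order.

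*1500009C09Rik* is a low gene. It measured 6 and 6.02 CPM in WT and 0.252 and 0.308 CPM in *Otx2*(+/-), where these values rest on 5 and 6 counts. The WT level was 21.5 times as high over the summed counts (222 against 11), with an exact 95% interval of 11.8 to 43.6 that covers counting error only. *Otx2*(+/AA) pools lay between, with 1.88 and 2.24 CPM. In 4V it was 6.03 and 5.74 CPM after Cre-Tat and 9.71 and 7.66 CPM with vehicle, a log2 fold change of -0.56 (standard error 0.22). The pools of WT, LV Cre-Tat and 4V Cre-Tat lay beside each other in the order of levels, and their neighbouring ranges overlapped.

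*Sptlc3*, the sphingolipid gene, was close to absent in the pools labelled *Otx2*(+/-) and near its control level after Cre-Tat in 4V. It measured 6.58 and 2.7 CPM in WT, 0.101 and 0.0514 CPM in *Otx2*(+/-), and 4.45 and 2.03 CPM in *Otx2*(+/AA). WT and *Otx2*(+/AA) overlap, and *Otx2*(+/-) lies below both. The *Otx2*(+/-) pools held 2 and 1 counts, 3 in all against 174 in WT. The ratio of WT to *Otx2*(+/-) was 61.7, with an exact 95% interval of 20.8 to 302 for counting error alone. In 4V of the conditional model, pools labelled Cre-Tat had 7.76 and 6.95 CPM and vehicle pools 7.34 and 8.12 CPM, which overlap, at a log2 ratio of -0.06 (standard error 0.21). The WT pools differed more from each other than the vehicle pools did, and without WT pool A the fitted log2 fold change of *Otx2*(+/-) moved from -5.81 (standard error 0.69) to -5.03. With so few counts that fitted value depends on the prior count.

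*Cadm1*, the adhesion molecule, was higher than in its own controls in each of the 4 comparisons. It was 17.9 and 15.2 CPM in WT, 89.4 and 66.9 CPM in *Otx2*(+/-), and 52.8 and 51.2 CPM in *Otx2*(+/AA), with no overlap. In 4V it was 10.4 and 12.6 CPM with vehicle and 30.2 and 26.3 CPM after Cre-Tat. It was higher by 2.24 on the log2 scale (standard error 0.17) in *Otx2*(+/-) and by 1.30 (standard error 0.17) after Cre-Tat, or 4.73-fold and 2.47-fold. Both pools labelled *Otx2*(+/-) exceeded every other pool, followed by both *Otx2*(+/AA) pools.

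*Tll1*, the tolloid protease, was higher in *Otx2*(+/-) and lower after Cre-Tat. It measured 10.7 and 9.51 CPM in WT and 38 and 24.7 CPM in *Otx2*(+/-), so that the latter pools differed from each other more than the WT pools did. The log2 fold change was 1.64 (standard error 0.22), or 3.11-fold, and ranged from 1.29 without *Otx2*(+/-) pool A to 1.92 without pool B. In *Otx2*(+/AA) it was 12 and 11.8 CPM, above both WT pools. In 4V it was 10.4 and 9.14 CPM with vehicle and 5.16 and 4.89 CPM in the pools labelled Cre-Tat. That log2 fold change was -0.96 (standard error 0.21), or 51.5% of the vehicle level.

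**Figure D1:**
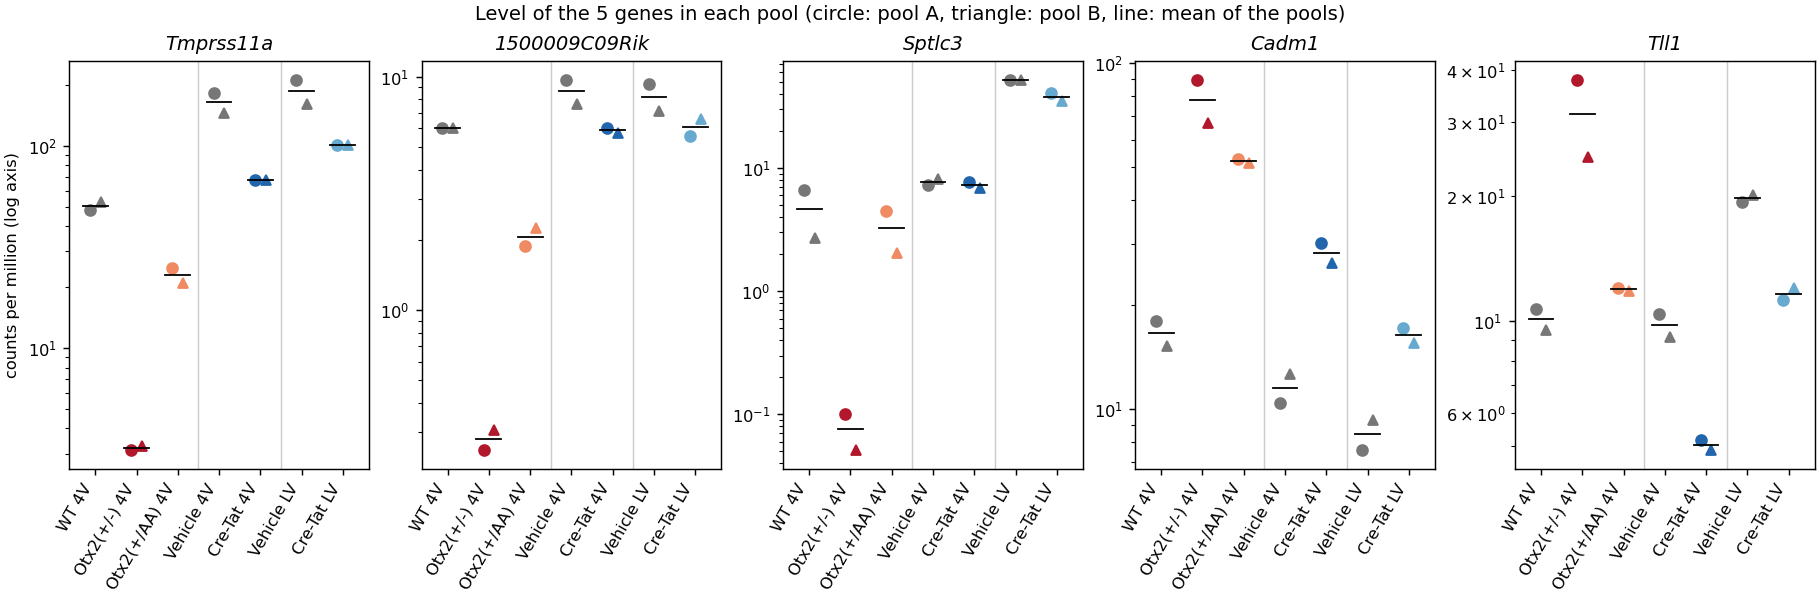
CPM of each gene (log axis) in the 14 pools, with groups along the horizontal axis, circles for pool A, triangles for pool B and a line at the mean of the pools. The first 3 genes are lowest in the pools labelled *Otx2*(+/-), *Cadm1* and *Tll1* are highest there, and *Sptlc3* is highest in LV.

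Compared per kilobase of transcript, *Tmprss11a* was the most abundant of the 5 in WT, at 18.9 ± 1.18 CPM per kilobase (SD, n = 2 pools), and the others were at 1.68 to 3.87. In the pools labelled *Otx2*(+/-) *Cadm1* came first with 17.6 ± 3.58 CPM per kilobase (SD, n = 2), followed by *Tll1* with 6.57 ± 1.97, *Tmprss11a* with 1.21 ± 0.042, *1500009C09Rik* with 0.181 ± 0.0254 and *Sptlc3* with 0.0276 ± 0.0127. The order of the protease *Tmprss11a* and the adhesion molecule *Cadm1* was thus exchanged between these groups.

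The *Otx2*(+/AA) pools took no part in the choice of the genes, but they are compared with the same WT pools that did. In this comparison 3 genes were called, against 0.345% of the 14490 genes tested (50 genes) at an adjusted p under 0.05, and because of the shared WT pools that count is not independent of the choice. *Cadm1* rose by 1.64 on the log2 scale (standard error 0.14, adjusted p = 0.0003 in edgeR, with the Benjamini-Hochberg method). *Tmprss11a* fell by 1.14 on the log2 scale (standard error 0.14, adjusted p = 0.0043, edgeR) and *1500009C09Rik* by 1.56 (standard error 0.26, adjusted p = 0.024, edgeR). *Sptlc3* stood at -0.52 on that scale (standard error 0.41, adjusted p = 0.82, edgeR) and *Tll1* at 0.23 (standard error 0.18, adjusted p = 0.82, edgeR). *Cadm1* and *Tmprss11a* were called under each of the 11 alternatives run. The call of *1500009C09Rik* was lost without *Otx2*(+/AA) pool A (adjusted p = 0.12, edgeR) or pool B (0.053), over a range of 3.6e-06 to 0.12 among its alternatives, and *Sptlc3* turned to 0.26 without WT pool A.

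LV ChP after Cre-Tat is the comparison whose libraries the choice did not use, although the same injected mice appear to have given the 4V pools that it did use, so LV is not an independent set of animals. There 3 of the 5 genes were called, against 3.24% of the 14997 genes tested (486 genes). *Tmprss11a* was 101 CPM in both pools labelled Cre-Tat and 212 and 160 CPM in the vehicle pools. It fell by 0.87 on the log2 scale (standard error 0.17, adjusted p = 0.014, edgeR), to 54.5% of the vehicle level. *Cadm1* was 17.1 and 15.5 CPM against 7.6 and 9.3 CPM, a rise of 0.95 (log2, standard error 0.19, adjusted p = 0.014, edgeR) or 1.93-fold. *Tll1* was 11.2 and 12 CPM against 19.3 and 20.1 CPM and fell by 0.76 on the log2 scale (standard error 0.17, adjusted p = 0.026, edgeR), to 59.1% of the vehicle level. The pools of these 3 genes do not overlap between Cre-Tat and vehicle.

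The other genes did not pass in LV. *Sptlc3* was 40.6 and 35.1 CPM after Cre-Tat and 51.7 and 52.3 CPM with vehicle (log2 fold change -0.46, standard error 0.16, adjusted p = 0.17, edgeR). *1500009C09Rik* was 5.58 and 6.56 CPM against 9.27 and 7.16 CPM (log2 fold change -0.44, standard error 0.23, adjusted p = 0.43, edgeR). For both, the Cre-Tat pools lay below the vehicle pools without overlap, from which nothing is read. The 3 calls depend on single pools. Without LV vehicle pool A the adjusted p (edgeR) was 0.27 for *Tmprss11a*, 0.12 for *Cadm1* and 0.077 for *Tll1*, and *Tll1* also lost its call without LV vehicle pool B (0.12) or LV Cre-Tat pool A (0.066). Apart from the files as attached, adjusted p ranged over the alternatives from 6.1e-05 to 0.27 for *Tmprss11a*, 0.00041 to 0.12 for *Cadm1* and 0.003 to 0.12 for *Tll1*, and all kept their direction.

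**Figure D2:**
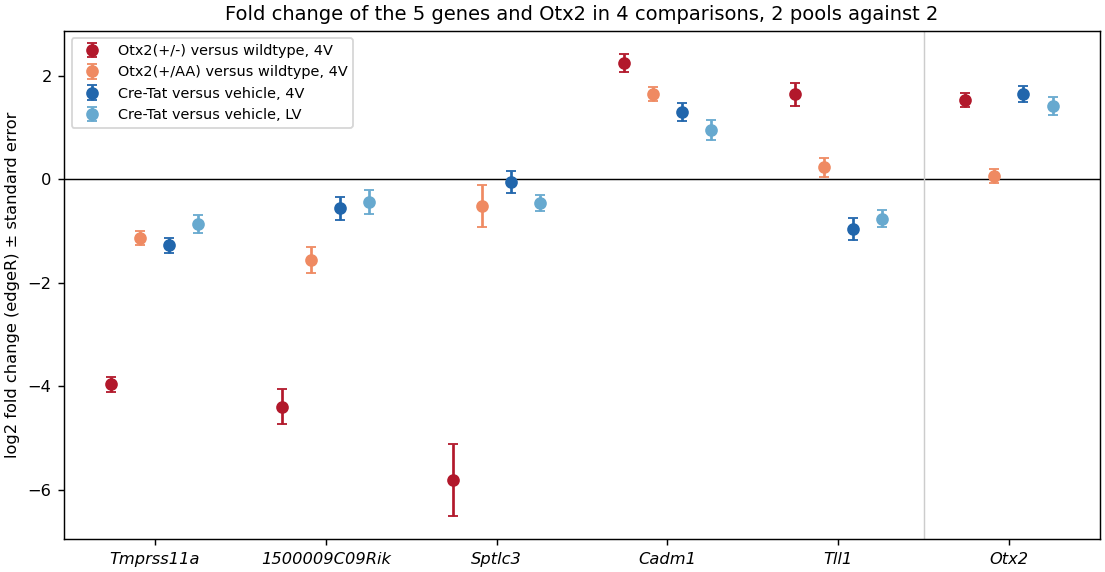
Log2 fold changes from edgeR with standard errors (vertical axis) for the 5 genes and *Otx2* (horizontal axis) in 4 comparisons of 2 pools against 2. The 3 genes on the left are farthest below 0 in *Otx2*(+/-), where *Sptlc3* rests on 3 counts, *Cadm1* is above 0 in each comparison, and *Tll1* is above 0 in *Otx2*(+/-) and below 0 after Cre-Tat in both ventricles.

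*Sptlc3* and *Tll1* also differed between ventricles in the vehicle mice. *Sptlc3* was 51.7 and 52.3 CPM in LV and 7.34 and 8.12 CPM in 4V, a log2 difference of 2.75 (standard error 0.15, adjusted p = 4.1e-07, edgeR) or 6.73-fold. *Tll1* was 19.3 and 20.1 CPM in LV and 10.4 and 9.14 CPM in 4V, a log2 difference of 1.00 (standard error 0.16, adjusted p = 0.002, edgeR). The pools of LV and 4V do not overlap for either gene, a separation whose share over all genes was not counted. Between the ventricles 7.44% of the 14556 genes tested were called. *Tmprss11a* (log2 difference 0.18, adjusted p = 0.54, edgeR), *1500009C09Rik* (-0.09, adjusted p = 0.86, edgeR) and *Cadm1* (-0.45, adjusted p = 0.19, edgeR) did not pass. The 4V vehicle pools were controls in a contrast that chose the genes. The LV and 4V vehicle pools appear to come from the same mice, but no source says whether letters match. With the letter as a block, the log2 difference was 2.75 for *Sptlc3* (adjusted p = 1.7e-18, edgeR) and 1.01 for *Tll1* (adjusted p = 8.1e-06, edgeR), and 2285 genes were called in place of 1083. Over all alternatives but the files as attached, the adjusted p reached at most 1.6e-05 for *Sptlc3* and 0.028 for *Tll1*. Both kept their calls without any single pool, and the constitutive groups were sampled from 4V alone.

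All transcripts of the 5 genes moved with the one used. *Cadm1* has 9 transcripts in the files, of which 6 are protein-coding. Their log2 ratios of mean levels were 2.23 to 2.39 in *Otx2*(+/-) over WT, 1.63 to 1.82 in *Otx2*(+/AA) over WT, 1.21 to 1.29 after Cre-Tat in 4V and 0.85 to 1.13 in LV. The retained-intron form of 2 exons, the lowest of the 9 with 1.81 CPM in WT, gave 2.38 in *Otx2*(+/-). The protein-coding form of 1254 bases, with 6.33 CPM in WT, gave the same 2.38. Both transcripts of *1500009C09Rik* lay at -4.46 and -4.42 in *Otx2*(+/-), and both of *Sptlc3* at -5.93, on the same 3 counts. A read may have been counted on each transcript that it overlaps, so transcripts of a gene are not independent.

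**Figure D3:**
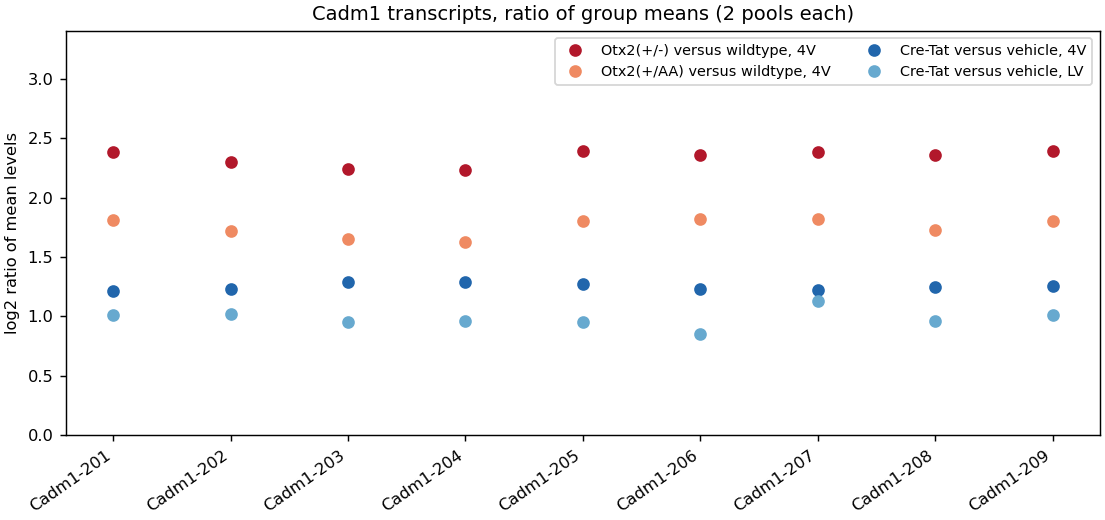
Log2 ratio of mean levels over 2 pools (vertical axis) for the 9 *Cadm1* transcripts (horizontal axis) in 4 comparisons. In each transcript the ratio is highest in *Otx2*(+/-), from 2.23 to 2.39, then in *Otx2*(+/AA), and lowest in LV after Cre-Tat, from 0.85 to 1.13.

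Of 53 other protein-coding genes tested within 1 Mb of the 5 gene bodies, 2 were called in *Otx2*(+/-). Beside this stands the 3.53% of all genes tested, coding or not, and noncoding genes nearby were left out. Of these the nearer is *Ism1*, which encodes the secreted protein isthmin and lies 40.5 kb beyond *Sptlc3*. *Ism1* rose by 2.41 on the log2 scale in *Otx2*(+/-) (standard error 0.17, adjusted p = 0.00041, edgeR), opposite to *Sptlc3*, and by 2.61 in 4V (standard error 0.23, adjusted p = 7.6e-07, edgeR) and 1.06 in LV (standard error 0.24, adjusted p = 0.026, edgeR) after Cre-Tat. In *Otx2*(+/AA) it was at 1.17 (standard error 0.23, adjusted p = 0.061, edgeR). The other is *Tcf20*, 0.548 Mb from *1500009C09Rik*, with 0.60 in *Otx2*(+/-) (adjusted p = 0.034, edgeR), named after its value was seen. None of 3 genes near *Tmprss11a*, 6 near *Cadm1* and 5 near *Tll1* was called by edgeR or DESeq2, with log2 fold changes of -0.48 to 0.92, and 3 of these 14 had an unadjusted p under 0.05. The nearest tested protein-coding neighbours other than *Ism1* are *Uba6*, *Ythdc1*, *Srebf2*, *Sept3*, *Btbd3*, *Bud13*, *Nxpe4*, *Spock3* and *Cpe*. None of them passed in the 4 comparisons where they were tested.

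**Figure D4:**
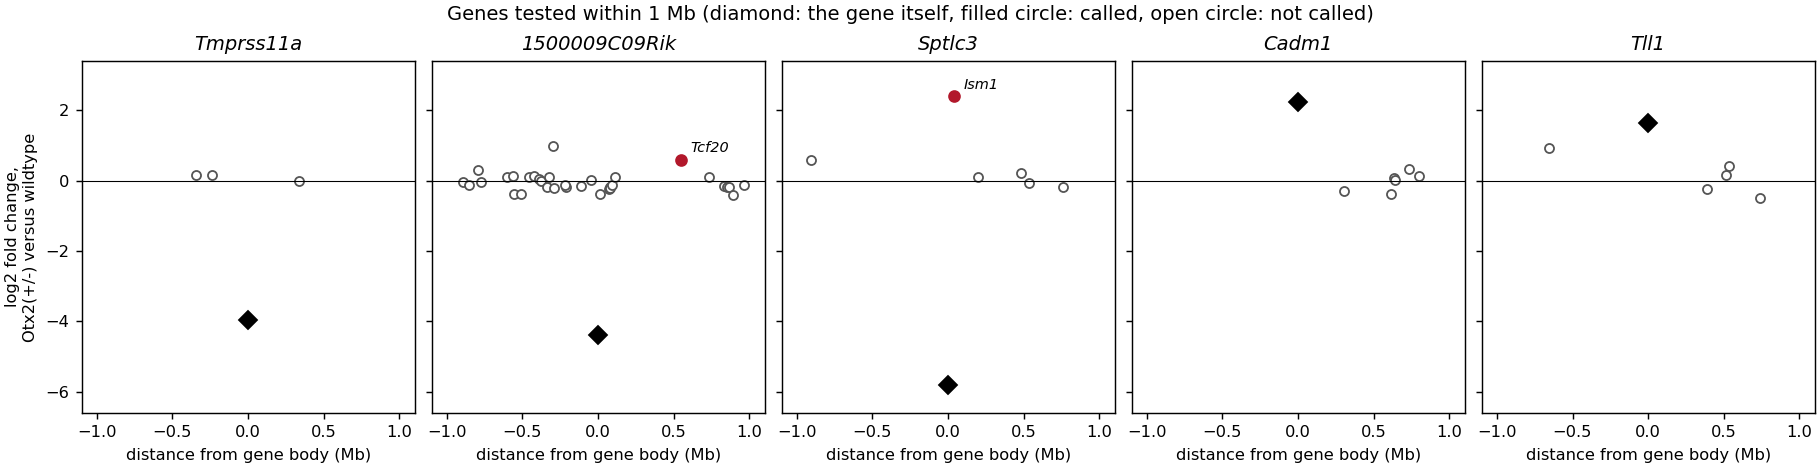
Log2 fold change in *Otx2*(+/-) versus wildtype (vertical axis) against distance from each gene body in Mb (horizontal axis) for protein-coding genes tested within 1 Mb. Filled circles are called genes and a diamond is the gene itself. *Ism1* at 2.41 beside *Sptlc3* and *Tcf20* at 0.60 near *1500009C09Rik* are the filled circles, and the diamond of *Sptlc3* rests on 3 counts.

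The partners of each gene were taken from lists of its pathway or family. In the list for sphingolipid synthesis (subunits and regulators of serine palmitoyltransferase, ceramide synthases and desaturases), 0 of 13 other genes tested were called in *Otx2*(+/-) by edgeR, where the median log2 fold change was -0.06, 3 had an unadjusted p under 0.05 and DESeq2 called 1. The main subunits *Sptlc1* (0.24, adjusted p = 0.3, edgeR) and *Sptlc2* (0.22, adjusted p = 0.4, edgeR) did not pass there. Beside the counts of this and the following lists stand the shares of all genes called, 3.53% in *Otx2*(+/-), 10.7% in 4V and 3.24% in LV after Cre-Tat, and with so few genes a list nothing particular is read from them. After Cre-Tat 4 of 14 fell in 4V, with a median of -0.30, and 1 of 14 in LV, with a median of -0.33. The one in LV was *Cers4*, a ceramide synthase, which fell by 0.70 (log2, adjusted p = 0.026, edgeR). The median over all genes tested was -0.01 to 0.01 in these comparisons.

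Among the other membrane serine proteases and their inhibitors, 2 of 7 genes tested fell in *Otx2*(+/-) and none rose. These were the inhibitors *Spint1* and *Spint2*, which block such proteases. In mean CPM over 2 pools *Spint1* fell from 10.2 to 3.08 (log2 -1.73, standard error 0.20, adjusted p = 0.0026, edgeR) and *Spint2* from 215 to 119 (log2 -0.86, standard error 0.11, adjusted p = 0.0049, edgeR). Both also fell after Cre-Tat in 4V, where 4 of 6 fell, and in LV 0 of 4 passed in edgeR or DESeq2 (2 at an unadjusted p under 0.05). The list median was -0.48 in *Otx2*(+/-), -1.11 after Cre-Tat in 4V and -0.61 in LV.

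For the adhesion molecules of the CADM and nectin families and their partners, 1 of 10 others fell in *Otx2*(+/-) and none rose with *Cadm1*. It was *Epb41l3*, a membrane skeleton protein that binds CADM proteins (log2 -0.73, standard error 0.16, adjusted p = 0.042, edgeR). After Cre-Tat 2 of 10 fell in 4V and 1 of 10 in LV, where *Cadm2* fell from a mean of 175 to 99.8 CPM (log2 -0.80, standard error 0.18, adjusted p = 0.029, edgeR). The list medians were -0.02 in *Otx2*(+/-) and -0.24 after Cre-Tat in either ventricle.

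Of 16 other genes tested around *Tll1* (tolloid proteases, their enhancers and their substrates), 2 rose and 2 fell in *Otx2*(+/-), with a median of 0.24. The substrates *Col1a2* (log2 1.09, standard error 0.12, adjusted p = 0.0019, edgeR) and *Col3a1* (log2 0.82, adjusted p = 0.018, edgeR), both fibrillar procollagens, rose. The growth factors *Bmp2* (log2 -1.40, adjusted p = 0.034, edgeR) and *Gdf11* (log2 -0.64, adjusted p = 0.019, edgeR) fell. In LV after Cre-Tat *Col1a2* rose (log2 1.64, standard error 0.17, adjusted p = 0.00012, edgeR), as the 1 of 14 called, whereas *Tll1* fell there. In 4V after Cre-Tat 1 of 14 rose and 2 fell. Other than members, none of the genes in these 4 lists was called in *Otx2*(+/AA) by edgeR or DESeq2, and 2, 4, 1 and 4 of them had an unadjusted p under 0.05, in the order above.

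The genes most like each member were found over the 14 pools, as the smallest root mean square difference between log2 levels, each centred on its own controls. For *Tmprss11a* these were *Sebox*, a homeobox gene (difference 0.42), *1500009C09Rik* (0.45) and *Slc16a8*, a monocarboxylate transporter (0.50). For *1500009C09Rik* they were *Chrnb4*, a nicotinic receptor subunit (0.32), *Slc39a4*, a zinc importer (0.33), and *Tub* (0.40). *Sptlc3* was most like *Gldc*, of the glycine cleavage system (0.37), *Pon1*, paraoxonase (0.45), and *Chrnb4* (0.48). For *Cadm1* the nearest were *Lrrc18* (0.33), *Cpne4*, a copine (0.42), and *Sulf2*, a heparan sulfatase (0.44). *Tll1* was most like the endothelin receptor *Ednrb* (0.27), *Spon1*, which encodes a matrix protein (0.30), and the glypican *Gpc3* (0.33). Mean centred log2 levels of *Tll1* were 1.56 in *Otx2*(+/-), -0.89 in 4V and -0.74 in LV after Cre-Tat. *Ednrb* (0.99, -1.05 and -0.85), *Spon1* (1.45, -1.23 and -0.28) and *Gpc3* (1.42, -0.23 and -0.65) had the same signs. All genes of this paragraph were picked for likeness over the same pools, so nothing is read from these matches. The 0.5 CPM added before the logarithm shrinks changes near the floor. In *Otx2*(+/-) the mean centred level was -3.05 for *Sptlc3*, whose fitted log2 fold change was -5.81. For *1500009C09Rik* the values were -3.06 and -4.39. The genes listed as nearest to these 2 depend in part on that floor.

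Cell type markers moved with several groups. The summed level of the 10 epithelial markers was 146928 to 156133 CPM in WT and 84439 to 97216 CPM in *Otx2*(+/-), where 1 of 10 (*Otx2*) rose and 2 fell. It was 146953 to 176551 CPM with vehicle and 66812 to 79164 CPM after Cre-Tat in 4V, where 1 rose and 9 fell. In LV it was 185958 to 194395 CPM against 101156 to 140977 CPM, where 1 rose and 5 fell. Each sum adds plain levels, so the highest markers weigh most. The epithelial list includes *Ttr*, which the study gives as the most highly expressed ChP gene, far above other markers listed here. That sum thus follows mainly *Ttr* and does not show a like change of all 10 markers. The 6 fibroblast and meningeal markers summed to 726 to 799 CPM in WT and 1004 to 1108 CPM in *Otx2*(+/-). There 2 of 6 rose, *Col1a2* and *Col3a1*, and none fell. In 4V the sums were 496 to 517 CPM with vehicle and 440 to 488 CPM after Cre-Tat, where 1 (*Col1a2*) rose and 1 fell. The 5 astrocyte markers summed to 61.2 to 67.5 CPM in WT and 89.4 to 141 CPM in *Otx2*(+/-), where 1 of 5 rose. With vehicle and Cre-Tat they summed to 38.9 to 58.3 CPM and 58.7 to 61.4 CPM in 4V. In LV the sums were 56.9 to 76.1 CPM and 85 to 112 CPM, and 2 of 5 rose after Cre-Tat in each ventricle. The 7 macrophage markers summed to 45.3 to 48.4 CPM with vehicle and 69.2 to 92.8 CPM after Cre-Tat in 4V, where 5 of 7 rose, and to 63 to 70.9 CPM and 106 to 109 CPM in LV, where 2 rose. The 6 ependymal markers, of which 5 were tested, went from 135 to 168 CPM up to 272 to 285 CPM in 4V and from 140 to 152 CPM up to 217 to 273 CPM in LV, with 2 higher in each, and were at 250 to 269 CPM in WT and 248 to 291 CPM in *Otx2*(+/-). No marker of these 5 lists was at 0 in both pools of a group. Lists for endothelium, mural cells, oligodendrocytes, neurons, cerebellar neurons and red blood cells, not all of whose genes were tested, had no call in *Otx2*(+/-). Single markers of some of them were called after Cre-Tat. Mural markers summed to 486 to 505 CPM in WT and 200 to 221 CPM in 4V vehicle, and endothelial ones to 238 to 264 and 86.9 to 100 CPM. A change in the number of cells of a type and a change in marker RNA per cell cannot be told apart in such pools. The part of these markers in the values of the 5 genes was not tested.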

How the data were processed

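RNA-seq of mouse ChP was analysed in 22 files from 14 pools (2 per group). The authors deposited whole-number read counts per Ensembl transcript, without normalization. The submitters' processing notes name bcl2fastq 1.8.4, Bowtie 0.12.9, SAMtools, HTSeq 0.5.3, DESeq 1.8.3 and mm10. The strand setting of counting is not given in the sources used here, so reads of an overlapping antisense RNA could be included. The labels describe strand-specific libraries after depletion of ribosomal RNA, whereas the study's methods describe PolyA+ selection.

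In 14 of the 16 conditional files, the library number in the file name is not that of the sample it is attached to. Files were joined by library number. The 8 pairs of runs so formed differed by 1.002 to 1.032 times the degrees of freedom (chi-square), against 13.2 to 20.5 as attached, and were summed. Letters A and B follow the labels through that number.

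Transcripts were matched to GENCODE vM21 (82779 of 95533, with 89.5% of counts), and the transcript with the highest count summed over the files stood for its gene. Tests used edgeR 4.0.16 under R 4.3.3 (filterByExpr, TMM, quasi-likelihood F test, Benjamini-Hochberg over all genes tested, threshold 0.05), with only the groups compared in each fit, and the procedure was tested on simulated data. Python 3.11.15, pandas 2.3.3, SciPy 1.17.1 and NumPy 2.4.6 served for tables. Standard errors beside edgeR values are the absolute log2 fold change divided by the square root of F, so they restate that F test. For the contrasts that chose the genes they are a description only. With 2 pools per group, exact permutation gives no p below 0.333, so pools without overlap are a description only. Pools A and B are biological replicates by the labels, and totals of 11253762 to 43790479 counts per file set the counting error only. The alternatives were DESeq2 1.42.0, edgeR with DESeq2 size factors or total counts, no filter and a block for the pool letter. Further ones were a fit over all groups of the run (all groups of the same model), a sum over transcripts, the files as attached and each pool left out.

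The members, the gene lists and the markers were chosen with earlier results of these data known. Named genes are the members, *Otx2*, and genes of 4 lists called in *Otx2*(+/-) or LV (at most 5 per list). To these come the nearest tested protein-coding neighbours and the 3 genes most like each member (log2 of CPM + 0.5, mean count of at least 10). *Sptlc1*, *Sptlc2*, *Tcf20* and *Ttr* are named outside this rule.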

Additional observations from a re-analysis of the deposited data

Results flagged for a closer look

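The effect of *Otx2*(+/-) minus the effect of Cre-Tat in 4V stood out for 4 of the 5 genes, by the interaction of label and model in edgeR, which called 1.65% of the 15322 genes tested. The genes were picked for this difference, so the values describe that choice. The log2 difference was -2.67 (standard error 0.21) for *Tmprss11a*, -3.81 (standard error 0.39) for *1500009C09Rik*, -5.72 (standard error 0.72) for *Sptlc3*, which rests on 3 counts in *Otx2*(+/-), and 2.61 (standard error 0.30) for *Tll1*. For *Cadm1* it was 0.95 (standard error 0.24). Without any single pool the differences stayed between -2.85 and -2.51 for *Tmprss11a*, -4.0 and -3.66 for *1500009C09Rik*, -6.24 and -4.95 for *Sptlc3*, and 2.25 and 2.89 for *Tll1*. Model, strain, injection and library number series cannot be told apart in this difference. No group has the 4 samples needed to look for single outlying pools.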

How the results depend on the processing

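Directions of the 5 genes in *Otx2*(+/-) and of those called in *Otx2*(+/AA) and LV held under each alternative but the files as attached. As attached, 4V log2 fold changes became 0.45 (*Tmprss11a*), -0.77 (*Cadm1*) and 1.32 (*Tll1*), LV ones 0.39 (*Tmprss11a*), 2.59 (*Sptlc3*), -0.77 (*Cadm1*) and 1.02 (*Tll1*), and LV versus 4V 0.25 (*1500009C09Rik*) and 0.04 (*Cadm1*), while 8747, 6708, 4715 and 4687 genes were called after Cre-Tat in 4V and LV, between ventricles and between models. Both called ventricle differences were lost (*Sptlc3* 0.05, adjusted p = 0.82, and *Tll1* 0.21, adjusted p = 0.26, edgeR), *Tmprss11a* there was called at 0.31, in 4V *Sptlc3* stood at 2.56 and *1500009C09Rik* at 0.10, and the *Tll1* difference between models at 0.33. That join mixes runs of different pools. Uncalled values also changed sign: *Tmprss11a* between ventricles was -0.00 with total counts, and with single pools left out it ranged from -0.06 to 0.39, *1500009C09Rik* there from -0.3 to 0.11, and *Sptlc3* in *Otx2*(+/AA) from -1.2 to 0.26.

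Genes called numbered 515 in *Otx2*(+/-), 50 in *Otx2*(+/AA), 1555 in 4V and 486 in LV after Cre-Tat, 1083 between ventricles and 253 between models. In *Otx2*(+/AA) DESeq2 called 122, all groups of the run 18, no filter 390 and a sum over transcripts 22. No filter gave 875 in LV, 1841 between ventricles and 626 between models, all groups of the run gave 717 between ventricles, and a sum over transcripts 166 between models. With single pools left out the counts ranged over 400 to 881, 29 to 351, 891 to 1666, 321 to 737, 403 to 1972 and 80 to 246, in the order of the first sentence, and a lone pool was then assumed to vary like the other group. The causes were not tested.

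Scaled by total counts, all genes had a median log2 of 0.11 in *Otx2*(+/AA), 0.15 in 4V, 0.17 in LV, -0.19 between ventricles and -0.12 between models, against -0.01 to 0.01 with TMM. Calls were then 28 higher and 10 lower (25 and 25 with TMM), 1317 and 425 (829 and 726), 396 and 48 (331 and 155), 252 and 1222 (504 and 579), and 93 and 166 (132 and 121). With total counts *Tmprss11a* in LV stood at -0.71 (adjusted p = 0.078, edgeR), *Tll1* in LV at -0.59 (0.092) and *1500009C09Rik* in *Otx2*(+/AA) at -1.44 (0.063), no longer called. *1500009C09Rik* also lost that call with all groups of the run (0.064), and *Tll1* in LV with a sum over transcripts (0.062).

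No source says that pools with the same letter share mice across groups, though LV and 4V of a conditional group appear to share them. Deviations of pools with the same letter from group means correlated by -0.12 (LV) to 0.35 (*Otx2*(+/-)). With the letter as a replicate block, 2535 genes were called in *Otx2*(+/-), 549 in *Otx2*(+/AA), 3114 in 4V, 623 in LV, 2285 between ventricles and 1049 between models, and no call of the 5 genes changed. With the letters crossed in LV, an alternative chosen after seeing the data, 1015 genes were called. With 2 pools per group the spread between pools limits precision, and for *Sptlc3* and *1500009C09Rik* in *Otx2*(+/-) counting error does too.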
